A study of Xenopus tropicalis with 2 samples.

Results

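Broad peaks are the intervals of 800 bp or more in a list of sites bound in a thyroid hormone receptor (TR) chromatin immunoprecipitation (ChIP) from tadpole brain. They were chosen by the listed width of each uniquely named peak, and 292 of 6302 peaks met the rule (4.63%). The other 6010 peaks were shorter and serve as the comparison under the name narrow peaks. The tissue was the middle brain region with the preoptic area, hypothalamus and thalamus of wild-type Xenopus tropicalis at Nieuwkoop-Faber (NF) stage 62, the climax of metamorphosis. The study sequenced 1 library precipitated with a polyclonal antiserum to Xenopus TRs and 1 input library from the same kind of chromatin, which was not precipitated. With 1 library of each kind there was no replicate, so no difference between groups was tested and every interval below covers counting error only. For folds that is the error of the ChIP count alone, with the background held fixed. A polyclonal antiserum to TRs does not separate one receptor gene's product from another's, and dissected tissue does not separate neurons from glia. No agent or genetic change was applied, and tadpoles were fed and reared under 1 regime per the labels' protocols.

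Thyroid hormone receptors are nuclear receptors that sit on response elements in chromatin, usually as a partner of a retinoid X receptor. Without hormone they recruit corepressor complexes with histone deacetylases, and with hormone they recruit coactivators. In frogs the rise of thyroid hormone drives metamorphosis, and its direct targets include the receptor gene thrb itself and klf9, a zinc finger factor. A ChIP peak is a stretch over which fragments exceed the background, and its width depends on the fragment length, on the depth of the signal and on how far enriched sequence extends.

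Widths of the broad peaks ran from 800 to 4053 bp, with a median of 986 bp and quartiles of 875 and 1190 bp. Narrow peaks had a median of 324 bp and began at 211 bp. Most broad peaks lay close to the limit: 155 of 292 (53.1%) were shorter than 1000 bp, 137 were at least 1000 bp, 31 at least 1500 bp and 12 at least 2000 bp. The 292 broad peaks covered 13.0% of all bases within peaks. The limit cuts a continuous range. Just inside it were the peaks of ier5l at 800 bp, ranbp1 at 801 bp and ddx5 at 802 bp, and just outside it those of lamtor2 and tubb4a at 799 bp and acot13 at 798 bp. On placed chromosomes the share of peaks that were broad lay between 2.89% on chromosome 4 (18 of 623) and 6.27% on chromosome 2 (49 of 781). It was 3.33% on unplaced scaffolds.

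**Figure D1:**
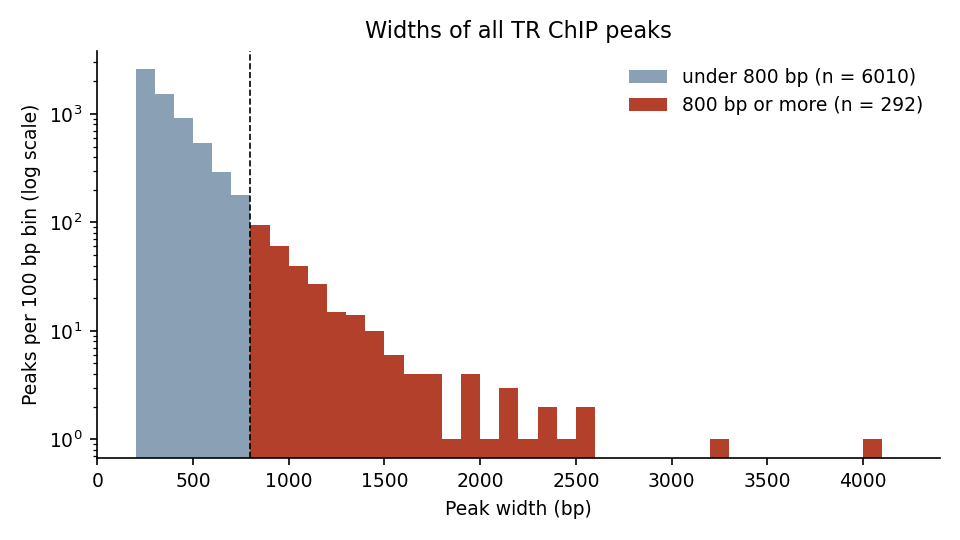
Number of peaks in bins of 100 bp of width, on a log count axis, for narrow peaks (grey) and broad peaks (red); the dashed line marks 800 bp. Counts fall without a gap across the line, and the widest peak stands alone at 4053 bp.

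Broad peaks were also deeper peaks. At the summit they held a median of 35 ChIP fragments (quartiles 28 and 43.2) over a background of 6.14 fragments, and narrow peaks held 24 over 5.45. The median fold enrichment at the summit was 5.07 for broad and 4.05 for narrow peaks. Width was the rule, and fold and significance come from the same contrast, so these values describe the members and support nothing. Across all 6302 peaks Spearman's rho between width and summit fragments was 0.548, and between width and fold 0.358. Within the 292 broad peaks the same values were 0.0923 and 0.0797, so width and depth hardly moved together among the members. The rule restricts the range of width among the members, so these values cannot be compared directly with those over all peaks. Of the 1000 peaks with the highest −log10 adjusted p-value, 124 were broad. Conversely, 38 broad peaks lay below the median −log10 adjusted p-value of all peaks. The share of broad peaks was 0.464% in the lowest of 10 bands of that value with about equal numbers of peaks and 12.2% in the highest band.

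**Figure D2:**
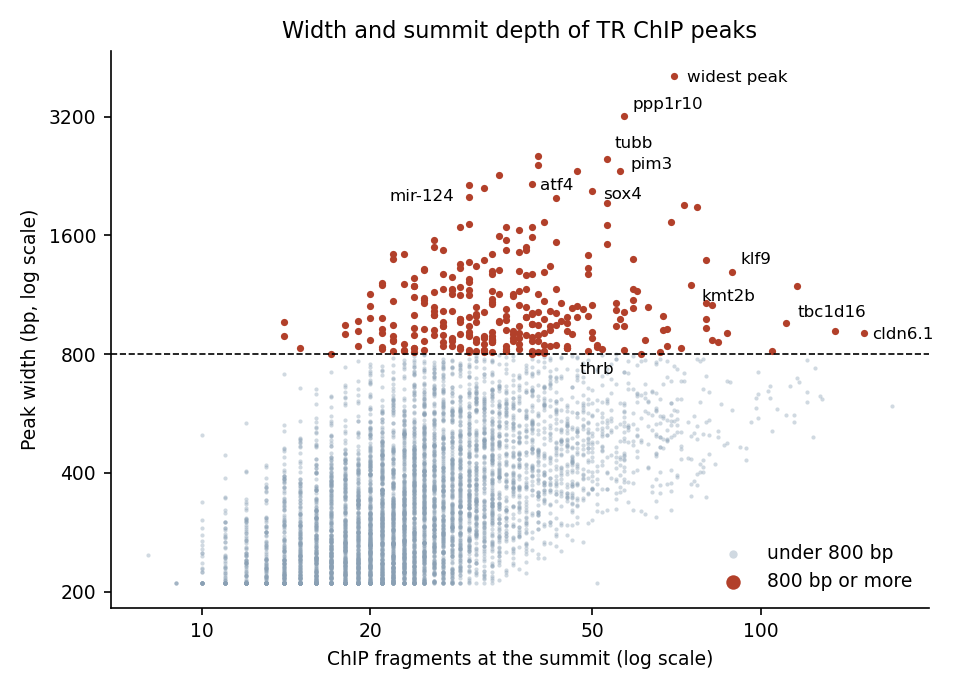
Width of each peak (bp, log scale) against the ChIP fragments at its summit (log scale), with narrow peaks in grey, broad peaks in red and the limit of 800 bp as a dashed line. Broad peaks extend from 14 to 153 fragments; those of pim3, atf4 and mir-124 are wide at 30 to 56 fragments, and those of cldn6.1 and tbc1d16 are deep at close to 900 bp.

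The widest peak measured 4053 bp at chr4:38938309-38942361, in a stretch without an annotated gene in the list, and its summit held 70 fragments over a background of 4.80. Its fold was 12.2 (95% interval 9.59 to 15.4), one of the 10 highest among broad peaks. The second widest, 3219 bp at chr8:52439141-52442359, covered the start of ppp1r10, which encodes a nuclear regulatory subunit of protein phosphatase 1. It reached 1128 bp upstream and 2090 bp downstream of that start, and it was also paired with mrps18b, a mitochondrial ribosomal protein gene. The beta-tubulin gene tubb had a peak of 2500 bp that reached 407 bp upstream and 2092 bp downstream of its start. These peaks thus spread mostly over the 5′ part of the gene. A peak of 2418 bp covered the start of irf2bp2, a transcriptional corepressor gene, with 1393 bp upstream and 1024 bp downstream. It was also paired with tomm20, a gene of the mitochondrial import machinery.

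At pim3, a serine/threonine kinase gene, the wider peak measured 2330 bp and reached 1626 bp upstream of the start. The peak of atf4, which encodes the factor of the integrated stress response, measured 2161 bp, with 1291 bp upstream and 869 bp downstream. Both therefore lay more over the upstream sequence than over the gene. The 1995 bp peak of npas4, an activity-dependent basic helix-loop-helix factor of neurons, was nearly centred on the start, with 915 bp upstream and 1079 bp downstream. It was also paired with mrpl11, whose start lay 16.9 kb away. The peak of camk2n2, an inhibitor gene of calcium/calmodulin-dependent kinase, measured 1931 bp, of which 1512 bp lay downstream of the start.

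Of the 15 widest peaks, several stood at microRNA genes or outside genes. The peak at mir-125b-1 measured 2143 bp, the wider one at mir-9-3 2104 bp and the widest at mir-124 1998 bp. That at sox4, a developmental transcription factor gene and thyroid hormone response gene, measured 2077 bp and had its summit 1544 bp upstream of the start. The remaining peaks of the set had no gene. A peak of 2549 bp lay 13.4 kb from bahcc1, one of 2330 bp on the same chromosome 4 interval as the widest, and one of 2272 bp between usp25 and the microRNA gene mir-99.

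Fold enrichment among broad peaks ran from 2.40 at carmil3, a regulator of actin capping, to 36.31 at cldn6.1. The peak near cldn6.1, a tight junction gene, was only 907 bp wide but held 153 fragments over a background of 3.24, the highest fold of all 6302 peaks (95% interval 30.8 to 42.5). Its summit lay 9220 bp upstream of the gene, near the end of the 10 kb that the annotation assigns to a gene. Next came the start shared by rps28p9 and ndufa7, a gene of respiratory complex I, at 15.8 (13.0 to 19.0). The peak of ubap2, a ubiquitin-associated protein gene, followed at 14.9, and the start shared by xpnpep3 and st13, an aminopeptidase and a co-chaperone gene, at 14.2. The peak of adsl, a purine synthesis gene, had a fold of 13.7. That of kmt2b, a histone H3 lysine methyltransferase gene, and that of dnajb12, a chaperone gene, each reached 13.1. The elongin gene elob, which shares its peak with pkmyt1, reached 13.0, and g3bp2, a stress granule gene that shares its peak with uso1, reached 12.4. Widths of these 9 peaks ran from 816 bp at ubap2 to 1199 bp at kmt2b, and 8 of them had the summit within 1 kb of a start. The reverse case was tbc1d16, a Rab GTPase-activating gene: 136 fragments stood over 47.9 background fragments, the highest background in the list, and the fold was 2.80.

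The summit of 190 of 292 broad peaks (65.1%, exact 95% interval 59.3 to 70.5) lay within 1 kb of an annotated transcription start site (TSS). Over all peaks the share was 53.7%, and over narrow peaks 53.1% (51.8 to 54.4). A further 39 broad peaks (13.4%) had the summit inside a gene more than 1 kb from its start, against 22.9% of narrow peaks. Another 26 (8.9%) lay in the 10 kb upstream part or at the far end of a gene, against 6.51%, and 37 (12.7%) were paired with no gene, against 17.5%. Depth moved with this difference. When narrow peaks were weighted to the bands of −log10 adjusted p-value in which the broad peaks lay, 66.7% of them had the summit within 1 kb of a TSS. The difference of 12 percentage points then became -1.67 points. Among the 1000 most significant peaks the shares were 77.4% of 124 broad and 78.9% of 876 narrow peaks. Within the broad peaks the share fell with width, from 72.9% below 1000 bp (65.2 to 79.7) to 56.2% at 1000 bp or more, and to 6 of 12 at 2000 bp or more. Of those 12, 4 were paired with no gene.

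Of the 190 broad peaks with the summit within 1 kb of a TSS, 85.8% covered the nearest start, against 58.2% of such narrow peaks. The summit of the 190 peaks stood a median of 48 bp downstream (quartiles 170 bp upstream and 181 bp downstream), and that of narrow peaks 34 bp downstream. It was upstream in 84 and at or downstream of the start in 106 (55.8%, against 58.6% of narrow peaks). The absolute distance had a median of 176 bp for broad and 141 bp for narrow peaks. Starts on both strands lay within 1 kb of the summit in 13.7% of these broad peaks and 12.8% of the narrow ones. A wider interval covers more sequence by construction, and 56.8% of broad peaks covered a TSS against 31.1% of narrow peaks. The 163 broad peaks that covered their nearest TSS reached a median of 416 bp upstream (quartiles 182 and 682) and 604 bp downstream (351 and 836). Of them, 100 reached further downstream and 63 further upstream, while 14 reached at least 500 bp to both sides. Inside the interval the summit lay at a median of 44.6% of the width from the end with the lower coordinate (quartiles 26.2 and 65.2), and at 49.1% in narrow peaks (36.8 and 61.3). The summit could stand near either end, as at tubb with 22.1% and at the wider peak of mir-9-3 with 90.9%.

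**Figure D3:**
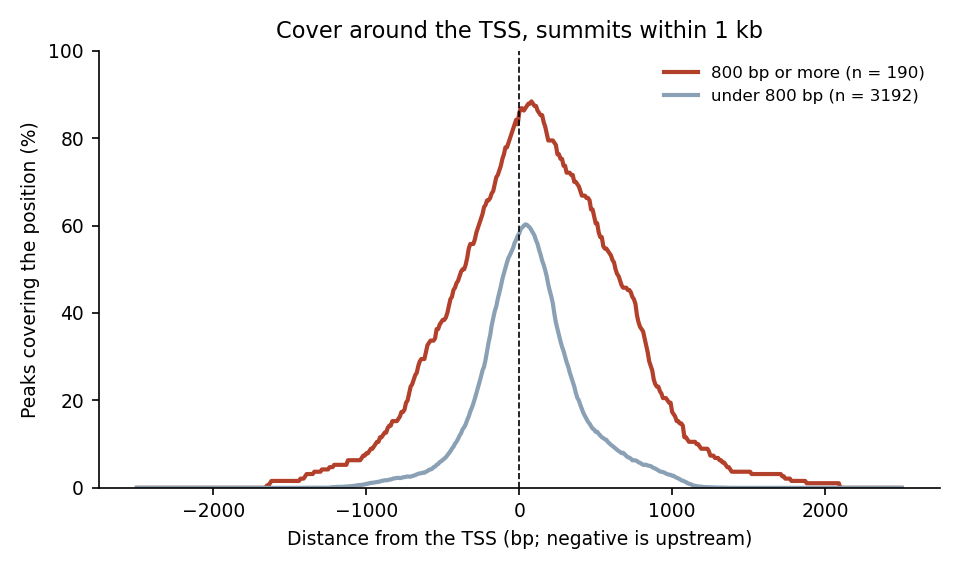
Share of peaks that cover each position around the nearest TSS (percent; negative distances in bp are upstream), for broad (red, n = 190) and narrow (grey, n = 3192) peaks with the summit within 1 kb. At 500 bp upstream 38.4% of the broad and 6.39% of the narrow peaks cover the position, and at 500 bp downstream 60.5% and 12.8%.

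Many broad peaks inside genes lay within a few kb of the start. The 39 with the summit in a gene body stood a median of 3.02 kb from the TSS, with an upper quartile of 50.4 kb. The 1376 narrow ones stood at a median of 22.8 kb. Examples were the second peak of pim3 at 1.23 kb, those of marcks, a membrane-bound protein kinase C substrate gene, at 1.36 kb, and of celf2, a neuronal splicing regulator gene, at 2.51 kb. Others lay deep within long annotated genes. In bcor, which encodes a corepressor of BCL6, 2 broad peaks of 1131 and 1192 bp stood 61.6 and 63.3 kb from the TSS, among 12 peaks in the gene. At tmsb4x, an actin-sequestering peptide gene, peaks of 1207 and 1587 bp stood 140 and 141 kb from the start of a model annotated at 309 kb. The 2 broad peaks paired with tubal3.1, an alpha-tubulin gene, lay 97.4 and 117 kb from its start. The annotation gives gene ends and strand only, so exons and introns were not told apart.

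The 37 broad peaks without a gene had a median width of 1064 bp and a median fold of 4.76. Of them, 16 lay in 5 intervals without a listed gene that held at least 2 each, and the other 21 were alone in their interval. The 5 include an unplaced scaffold with no listed gene on either side, which held 2. In the chromosome 4 interval that holds the widest peak, 4 of 13 listed peaks were broad, with widths of 1064, 1434, 2330 and 4053 bp and folds of 8.64, 4.66, 9.32 and 12.2. Upstream of bahcc1, a chromatin protein gene, 4 of 8 peaks were broad, with folds of 4.06 to 8.37. Between reep5 and stard4, 3 of 4 peaks were broad and the deepest held 80 fragments at a fold of 9.67. The gene order in RefSeq's annotation of another assembly places srp19, apc, epb41l4a and nrep there. Between usp25 and mir-99, 3 of 7 peaks were broad, with folds of 3.82, 5.36 and 4.76. A single broad peak of 1650 bp stood 11.9 kb from mir-9a-2 on the side of mef2c, a neuronal transcription factor gene.

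Many broad peaks stood beside another peak. The nearest other peak was within 500 bp for 29.5% of them (24.3 to 35.0), against 11.7% of narrow peaks, and within 5 kb for 46.6%, against 22%. Joining peaks separated by 500 bp or less gave 485 runs of at least 800 bp among 5864, of which 203 held no single broad peak. In 9 runs 2 or more broad peaks stood side by side, and these held 19 of the 292. The longest run spanned 6120 bp at mir-124 with 92.6% of its bases inside peaks. At pim3 a run spanned 4100 bp with 98.4% inside peaks, at actg1, the cytoplasmic actin gene, 4287 bp with 89.0%, and at jarid2, a gene of a Polycomb-associated protein, 4004 bp with 77.5%. Where one listed interval ends and the next begins rests on the authors' peak calling, so the number of broad peaks at these genes depends on it.

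The annotation paired broad peaks with 308 of the 5285 genes that had any peak (5.83%), and 14 of the 308 have no usable name. A gene with more peaks has more chances of a broad one, and the share was 4.26% of genes with 1 peak, 9.05% with 2, 13.9% with 3 and 34.5% with 4 or more (41 of 119). There were 17 genes with at least 2 broad peaks. Those with 3 were mir-124, klf9 and mir-9a-2. At mir-124 peaks of 1998, 1388 and 1709 bp had summits 3.83, 1.42 and 0.624 kb upstream of the hairpin, with folds of 5.87, 5.05 and 5.85. At klf9 a peak of 1289 bp stood 5.93 kb upstream with 89 fragments and a fold of 10.01 (8.06 to 12.3). Its second broad peak, 1018 bp at a fold of 4.84, had the summit 135 bp downstream of the start, and the third, 1167 bp at 3.34, stood 2.33 kb downstream. The upstream klf9 peak was thus the strongest of the 3, and its interval did not overlap those of the others. At mir-9a-2 the 3 broad peaks of 1276, 909 and 1044 bp stood 0.426, 4.75 and 9.69 kb upstream, with folds of 7.11, 6.18 and 4.30. A peak wholly downstream of a hairpin would not have been paired with it.

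The 2 broad peaks at pim3 adjoined each other, and the one inside the gene had the higher fold, 8.21 (6.19 to 10.7) against 4.73 (3.59 to 6.11). At sox4 the broad peaks, of 2077 and 841 bp, flanked 4 narrow ones of 425 to 762 bp over the gene. Their folds were 4.46 upstream and 3.61 beyond the far end. At actg1 a peak of 1914 bp lay over the start at a fold of 7.71 and one of 1209 bp at 3.35 kb, near the end of the gene, at 4.13. At marcks the pair of 1683 and 1247 bp had summits on either side of the start, at folds of 4.30 and 3.83. At jarid2 a peak of 1499 bp covered the start at 6.30 and one of 1018 bp followed at 1.93 kb with a fold of 4.58. The mir-9-3 peaks of 2104 and 891 bp stood 9.31 and 6.16 kb upstream of the hairpin, whereas its 5 nearer peaks were narrow.

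**Figure D4:**
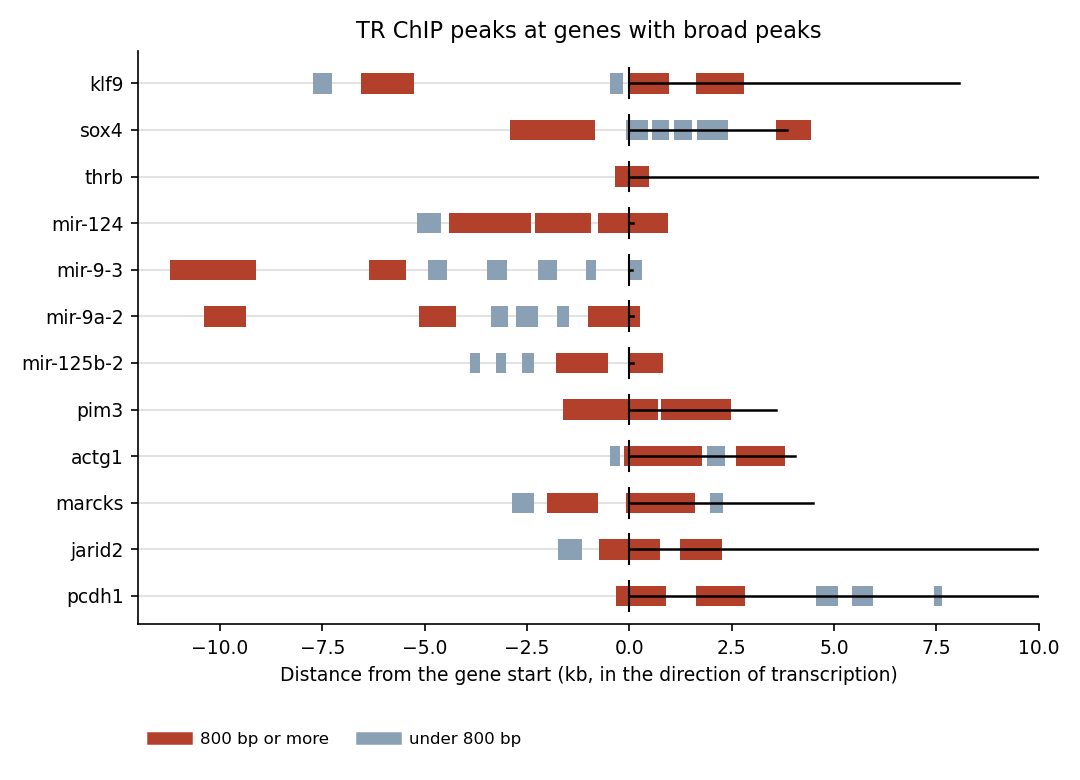
Listed peaks at 12 genes with broad peaks, drawn to scale by distance from the annotated gene start in the direction of transcription (kb); broad peaks are red, narrow ones grey, the black line is the gene and the tick its start. The 3 broad peaks of klf9 lie on both sides of the start, and the pair of pim3 is nearly continuous. Those of mir-124 and mir-9a-2 have their summits upstream, and the nearest of each covers the start. Peaks are paired from 10 kb upstream to the gene's end, so none wholly beyond these short hairpins could be shown.

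Gene lists for pathways, factor families and functions show which kinds of genes held broad peaks. Because deeper peaks were wider, each list's count is set beside the number of broad peaks its peaks would hold if each were broad as often as all peaks in the same band of −log10 adjusted p-value. That number is a description and not a test, and the lists share some genes. In 27 of 43 lists the share of genes with a broad peak exceeded the 5.83% of all genes. The lists were chosen with earlier results of these data known, and 1 was added after the values had been seen. No gene had a peak in 2 of the 43. Of the 1222 genes in any list, 125 had a broad peak. The count of 27 therefore also reflects the choice of lists and supports nothing. Across 8 transcription factor families, 24 of 212 peaks were broad (11.3%, 7.39 to 16.4), against 8.31 at the rate of their bands, and 21 of 103 genes held one. These 8 leave out the znf and zbtb genes. With them the counts were 28 of 307 peaks (9.12%, 6.15 to 12.9), against 13.9 at the rate, and 25 of 173 genes. Another 6 lists covered protein synthesis, protein turnover, energy and general transcription genes. Of their peaks 16 of 394 were broad (4.06%, 2.34 to 6.51), against 27.7 at that rate, and 16 of 358 genes held one. That share lay near the 4.63% of all peaks. The latter peaks were the deeper ones, with a median of 32 fragments against 21. Within peaks at a TSS alone the counts were 17 of 92 for factor families (4.57 at the rate) and 16 of 333 for these 6 lists (24.5). The general transcription list among the 6, of RNA polymerase, Mediator and general factor genes, held 1 of 68 against 5.45. The chaperone list, with 4 of 43 against 3.06, was not in this group. The grouping of lists was made after their values had been seen.

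**Figure D5:**
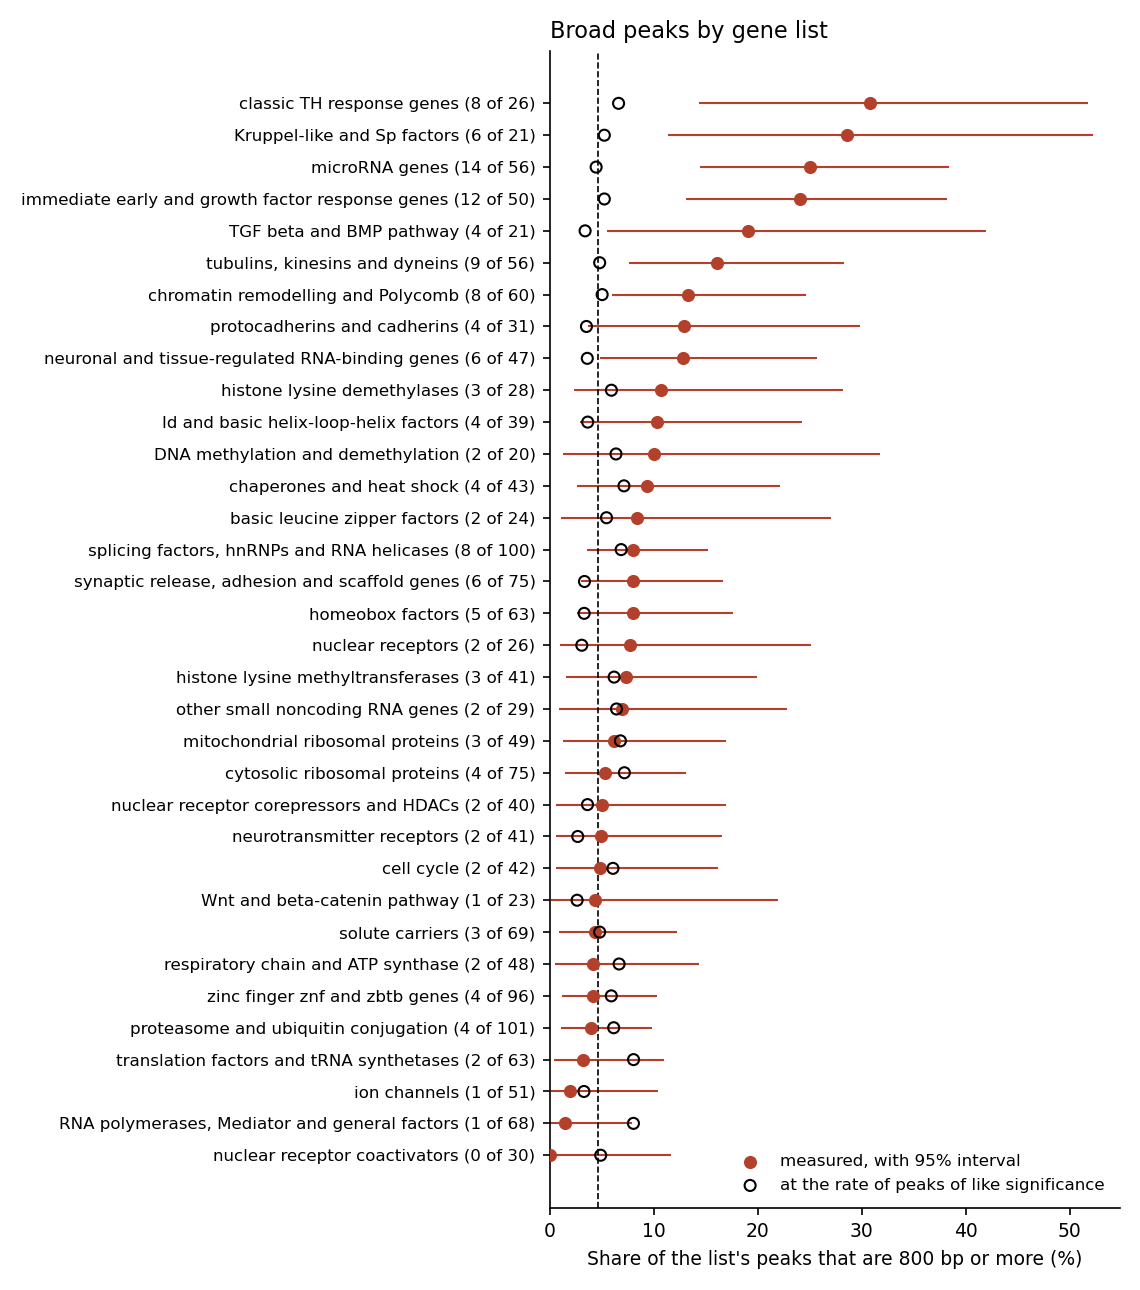
Share of each list's peaks that were broad (percent, red points with exact 95% intervals; the count stands beside each name), for lists with at least 20 peaks, and the share at the rate of peaks in the same band of −log10 adjusted p-value (open circles). The dashed line is the 4.63% of all peaks. Thyroid hormone response genes and Kruppel-like and Sp factors stand highest, at 30.8% and 28.6%, and both count the 3 broad peaks of klf9. Nuclear receptor coactivators stand lowest, at 0 of 30.

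Among thyroid hormone response genes known from frogs and other vertebrates, 5 of the 11 with a peak had a broad one, and 8 of their 26 peaks were broad against 1.71 at the rate of their bands. These were sox4 and klf9, described above, and dot1l, bcl6 and thrb. At dot1l, the histone H3 lysine methyltransferase gene, a single peak of 1039 bp held 48 fragments at a fold of 3.38 (2.51 to 4.45), with the summit 643 bp upstream. The peak of bcl6, a transcriptional repressor gene, measured 967 bp at a fold of 2.80. The peak over the start of thrb, the TR beta gene, was only 815 bp wide. Its fold was 9.25 (6.89 to 12.2), with 49 fragments and the summit 88 bp downstream of the start. Other genes of this list had narrow peaks at their widest: 699 bp at dnmt3a, 575 bp at gadd45g, 560 bp at prmt1, 497 bp at myc, 361 bp at rcan2 and 275 bp at thibz. Thus 3 of the 8 broad peaks belonged to klf9 and 2 to sox4.

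Of the Kruppel-like and Sp factors, zinc finger proteins of GC-rich promoters, 4 of 10 genes had broad peaks, and 6 of 21 peaks were broad against 1.10 at the rate. The 3 broad peaks of klf9 are among these 6 and were also counted in the thyroid hormone response list. Besides klf9 the genes were sp1 with 1077 bp, sp3 with 1007 bp and klf13 with 944 bp. The folds at sp1, sp3 and klf13 lay close together, at 4.70, 4.46 and 4.71. The widest peaks of klf7 and klf6 missed the limit at 785 and 768 bp, and those of klf2, klf3, klf10 and klf11 were 220 to 320 bp wide. Among homeobox factors 5 of 28 genes had a broad peak. Of their peaks 5 of 63 were broad (7.94%, 2.63 to 17.6), against 2.07 at the rate. Those named by width were pou6f1 with 1159 bp, dlx6 with 988 bp, zeb2 with 947 bp and cux1 with 893 bp. The pou6f1 peak lay 9.49 kb upstream of that gene. It was also paired with dazap2, 144.7 kb from that gene's start and inside its annotated body, so it counted as a gene-body peak. In the list of Id and basic helix-loop-helix factors 4 of 19 genes had a broad peak. They were npas4, id4 with 998 bp, tcf12 with 995 bp and usf2 with 952 bp. That made 4 of 39 peaks (10.3%, 2.87 to 24.2), against 1.41 at the rate. Among forkhead genes foxj3 had a broad peak of 920 bp. Of the Zic, Pax and Gli factors zic2 had a broad peak of 1091 bp, 2.51 kb into the gene. Of 12 nuclear receptor genes with a peak, thrb and nr4a1 (920 bp) had a broad one. That made 2 of 26 peaks (7.69%, 0.946 to 25.1), against 0.793 at the rate. The intervals of the homeobox, helix-loop-helix and nuclear receptor shares all included the 4.63% of all peaks. Of 96 peaks at zinc finger genes of the znf and zbtb series 4 were broad (4.17%), against 5.66 at the rate and close to the share of all peaks.

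Immediate early and growth factor response genes, a list added after the values had been seen, had broad peaks at 11 of 28 genes, and 12 of 50 peaks were broad against 2.61 at the rate of their bands. The widest were those of irf2bp2, pim3 and npas4, described above, and of egr1, a zinc finger factor induced by neuronal activity, with 1301 bp at a fold of 3.96 (2.82 to 5.42). The summit lay within 200 bp of the start at 10 of the 11 genes, the exception being ier5l at 1.57 kb. Narrow at their widest were, among others, junb with 563 bp, arc with 503 bp, jun with 395 bp and fosb with 234 bp. In the TGF beta and BMP pathway, 4 of 11 genes had a broad peak and 4 of 21 peaks were broad against 0.707 at the rate. They were the receptor gene acvr2b with 1370 bp at 3.02 kb into the gene, the inhibitory smad7 with 1148 bp, the corepressor gene ski with 887 bp and the signal transducer smad1 with 816 bp. The Notch list had none in 12 peaks, against 0.436 at the rate. In the Wnt list 1 of 23 peaks was broad against 0.599, at ctnnb1, the beta-catenin gene, with 943 bp.

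MicroRNA genes held broad peaks at 9 of 34 genes with a peak, and 14 of 56 peaks were broad, against 2.48 at the rate of their bands. MicroRNAs are short RNAs that repress messenger RNAs. Their annotated start is that of the hairpin, not of the longer primary transcript, so distances here are to the hairpin. The list pairs a gene only with peaks from 10 kb upstream to its end. A peak wholly downstream of a hairpin could thus not be paired with it, and mostly upstream positions follow from this rule. The genes were those of mir-124 and the mir-9 and mir-125b families, known for roles in neurons and neural progenitors, and mir-137-2, let-7c, mir-99 and mir-7-1. The mir-125b-1 peak had a fold of 4.0 and its summit 730 bp upstream. At mir-125b-2 peaks of 1278 and 820 bp stood 1.60 kb upstream and 322 bp downstream, at folds of 4.83 and 4.93. The mir-137-2 peak measured 1030 bp at 2.57 kb upstream. The genes let-7c and mir-99 shared 1 peak of 929 bp, and the mir-7-1 peak of 872 bp lay within hnrnpk, whose start was nearer. An entry on a scaffold that the deposited description calls microRNA 124-1 had 2 more broad peaks, of 1291 and 948 bp. Narrow at their widest were mir-9a-1 at 747 bp, mir-132 and mir-212 at a shared 730 bp, and let-7i at 703 bp. An unpaired broad peak of 822 bp stood 11.2 kb from mir-9a-1, just beyond the 10 kb that the list assigns to a gene. Counting only the gene with the nearest start left 7 of 19 microRNA genes with a broad peak.

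Several cytoskeletal genes held broad peaks. Of 35 tubulin, kinesin, dynein and microtubule-associated genes 8 had a broad peak, and 9 of 56 peaks were broad against 2.67 at the rate of their bands. After tubb, the widest were tubal3.1 with 1133 bp, the kinesin gene kif3c with 1127 bp, and map2, a dendritic microtubule protein gene, with 1095 bp. The count includes the 2 broad peaks of tubal3.1, whose pairing rests on a long gene model. The map2 fold was 2.71 (1.79 to 3.95) and that of kif3c 3.45. In the set of neuronal and tissue-regulated RNA-binding genes 5 of 23 had a broad peak, and 6 of 47 peaks were broad against 1.68. They included celf2 with peaks of 1494 and 969 bp, elavl4 with 1027 bp, nova1 with 980 bp and mbnl2 with 887 bp. The proteins of celf2, nova1 and mbnl2 are known as splicing regulators, and that of elavl4 as a stabiliser of messenger RNA. The summits in celf2, elavl4 and nova1 lay 1.51 to 26.7 kb into the gene.

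Synaptic release, adhesion and scaffold genes had 6 of 75 broad peaks (8.0%, 2.99 to 16.6) against 2.48 at the rate. Among them were lrrtm1 with 1242 bp, stx10 with 1073 bp, the SNARE gene snap25 with 1064 bp and stx1a with 896 bp. The stx10 peak covered the start of ier2 and lay 5.39 kb from that of stx10. The list of protocadherins and cadherins, with 15 genes that had a peak, held 4 of 31 (12.9%, 3.63 to 29.8) against 1.09. They were at pcdh10 (1316 bp), pcdh1 (1221 and 1191 bp) and pcdh19 (894 bp). The intervals of the synaptic and the cadherin share both included the 4.63% of all peaks. Neurotransmitter receptor genes held 2 of 41 against 1.09, at the glutamate receptor gene gria2 with 1595 bp and the glycine receptor gene glra2 with 1116 bp. That share, 4.88%, lay close to the 4.63% of all peaks. Of 51 ion channel peaks 1 was broad, at the potassium channel gene kcna2 with 873 bp, against 1.66 at the rate. These 4 lists were grouped with the RNA-binding list and the tubulin, kinesin and dynein list under neuronal function. Over the 6 lists 28 of 301 peaks were broad (9.30%, 6.27 to 13.2), against 10.7. The tubulin, kinesin and dynein list, which is one of cytoskeletal genes, gave 9 of the 28.

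Across 6 lists of chromatin genes 18 of 219 peaks were broad (8.22%, 4.94 to 12.7), against 11.4 at the rate of their bands, and the intervals of the single lists overlapped. Of 60 peaks at remodelling and Polycomb genes 8 were broad, against 3.0 at the rate. Among the widest were those of brd2, a bromodomain gene, with 1729 bp and a fold of 7.29 (5.70 to 9.20), bahcc1 with 1676 bp and arid1a, a SWI/SNF subunit gene, with 1523 bp. Among histone lysine methyltransferase genes kmt2e had 1886 bp with 77 fragments, kmt2b 1199 bp and dot1l 1039 bp, 3 of 41 peaks against 2.53. The demethylase list had 3 of 28 against 1.65, of which 2 were at jarid2, the gene of a Polycomb-associated protein, and 1 at kdm6a with 865 bp. The DNA methylation and demethylation list had 2 of 20 against 1.27. They were at ahcyl2, an adenosylhomocysteinase-like gene, with 996 bp and tet2, a methylcytosine oxidase gene, with 833 bp. Of 40 peaks at nuclear receptor corepressor and histone deacetylase genes 2 were broad, both in bcor, against 1.44. The intervals of the methyltransferase, demethylase, DNA methylation and corepressor shares all included the 4.63% of all peaks. None of 30 peaks at the 16 coactivator genes was broad, against 1.46 at the rate. The widest there was 774 bp at pprc1, followed by 651 bp at ep300 and 549 bp at ncoa3.

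The 6 lists of protein synthesis, turnover, energy and general transcription genes held few broad peaks each. Small differences from the rate of their bands carry little weight. Cytosolic ribosomal protein genes had 4 broad peaks of 75 (5.33%) against 5.36, among them rpl6 with 1037 bp, rps25 with 1031 bp and rpl27a with 933 bp. The start of rpl27a lay 89.1 kb from the summit, within a long gene model. Counting only the gene with the nearest start left 1 of 55. Mitochondrial ribosomal protein genes had 3 of 49 (6.12%) against 3.32, at mrps18b, mrpl11 and mrpl43 (925 bp). Translation factor and tRNA synthetase genes had 2 of 63 against 5.06, at eif1b with 914 bp and eif4a2 with 898 bp. RNA polymerase, Mediator and general factor genes had 1 of 68 against 5.45, at gtf2a1 with 977 bp. Proteasome and ubiquitin genes had 4 of 101 against 6.19, the widest at ube2d3 with 1307 bp and usp25 with 1276 bp. Respiratory chain genes had 2 of 48 against 3.19, at ndufa7 and at ndufa1 (829 bp). Outside these 6 lists, splicing factor, hnRNP and helicase genes had 8 of 100 against 6.84. The widest were ddx3x with 1449 bp, hnrnpab with 1045 bp, srsf5 with 1021 bp and tra2a with 942 bp. Chaperone genes, also outside the 6, had 4 of 43 against 3.06, at dnajb12 (1081 bp), hspa8 (1062 bp), dnajc6 (942 bp) and cct7 (818 bp).

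No broad peak was listed at the 7 circadian clock genes or the 5 hypothalamic peptide and hormone genes that had a peak, in 9 and 5 peaks. The exact upper 95% limits on these shares were 33.6% and 52.2%, so numbers this small could not show a difference from 4.63%. Solute carrier genes had 3 of 69 broad peaks against 3.29 at the rate of their bands, and cell cycle genes 2 of 42 against 2.54. With the names used here no gene of the oligodendrocyte and of the microglia lists had a peak. With names as deposited each list had 1 gene with a peak, and that of the microglia list was broad. In all, 125 of the 308 genes with a broad peak belonged to at least 1 list, as did 1222 of the 5285 genes with any peak.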

How the data were processed

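The deposited peak list was the starting point, with 7848 rows of peaks and paired genes, of which 6302 peaks were distinct. The submitters' processing notes name MACS2 2.2.6 and the aligner BWA 0.7.17, and also Picard 2.18.2, SAMtools 1.13, fastp 0.20.1, deepTools 3.5.1 and FastQC 0.11.9, without saying which step each did. The genome build, peak threshold and library depths are not given in the sources used here. Coordinates are those of the deposited list, and no sequence is printed. Enrichment in the deposited list is a fold ratio on a linear scale at the summit. Significance was deposited as −log10 p-values, raw and adjusted, the lowest adjusted one being 1.31, and the deposited score equals 10 times the latter, rounded down. Per the labels' protocols, 5 µg of chromatin was precipitated per reaction.

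A peak's summit is its start plus the listed offset, and its TSS is the nearest start among the genes it was paired with. The list pairs a peak with genes whose body or 10 kb upstream part holds it. Whole ChIP fragments were solved from fold and p-value, and for all 6302 peaks −log10 p was met within 2.48e-05 (tolerance 0.0001). This step was tested on simulated data. Intervals for shares are exact 95% binomial (Clopper-Pearson). Those for folds use exact 95% Poisson limits of the ChIP fragments with the background held fixed, so they leave out error in the background. Peaks of 1 library share their source, so they are not replicates, and no test was run. Names came from the list's gene numbers and RefSeq symbols, which left 336 of 5285 genes without a usable name. RefSeq coordinates of the reference assembly matched none of 4438 gene starts within 1 kb and were used for gene order only. Calculations used Python 3.11.15, pandas 2.3.3, numpy 2.4.6 and scipy 1.17.1.

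Members and lists were chosen with earlier results of these data known. Named genes are those of the 15 widest and the 10 highest-fold broad peaks, of up to 10 genes with at least 2 broad peaks, and of each list's members by width (up to 4). Genes shown with narrow peaks, and tbc1d16, carmil3, tomm20 and the nearest genes of intergenic peaks, were chosen after their values were seen. So were the immediate early list, the grouping of lists and the rate by bands of significance. Alternatives were other width limits, other TSS windows and stricter peak sets. Some genes that the rule names are not reported here.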

Additional observations from a re-analysis of the deposited data

How the results depend on the processing

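With limits of 600 and 1000 bp the number of broad peaks became 766 and 137, within the 1000 most significant peaks it was 124, and after joining peaks 500 bp or less apart, an alternative chosen after seeing the data, it was 485. The number of genes with a broad peak became 848, 129 and 161 under the first 3 of these settings. The share of summits within 1 kb of a TSS, 65.1%, became 56.2% at 1000 bp or more, 77.4% in the 1000 most significant peaks, 52.4% with a window of 500 bp, 75% with 2.5 kb and 56.8% where the peak itself had to overlap the TSS. The share without a gene, 12.7%, became 8.06% in the 1000 most significant peaks. The difference from narrow peaks in the TSS share went from 12 to -1.67 percentage points once narrow peaks were taken from the same bands of significance. Their share was then 66.7%, inside the interval of the broad share (59.3 to 70.5), so the sign of the remaining difference was not resolved. The cause was not tested. The other alternatives left these values within their intervals or within 1.5 times the count, and the number of lists above the background stayed between 24 and 32. No paired analysis was possible because there is 1 library of each kind, and for the same reason no replicate could be left out. A second ChIP library, not analysed here, would be needed to show how far peak widths repeat.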
